A study of Mus musculus with 6 samples.

Results

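Kinesins are motor proteins that bind microtubules, and the genes described here are those of the kinesin family in cultured mouse vascular smooth muscle cells treated with an inhibitor of gamma-secretase. The members are all protein-coding rows of the gene table whose symbol starts with Kif and a digit or with Kifc and a digit. There are 42 of them among 22379 protein-coding genes and 37309 rows in all. Their tissue of origin is the descending aorta, and the strain is the Immorto mouse, which carries a conditional viral T antigen that lets its cells grow in culture. The treated cells had DAPT at 50 uM over 3 days, which blocks gamma-secretase and with it the release of the active part of Notch receptors. The vehicle cells had DMSO. Each group had 3 libraries, and nothing in the labels says whether these came from separate cultures or animals, so the p-values measure only the spread between these samples. Both groups carry the gene for T antigen, a protein that drives cell division, which limits them as a model of resting vessel muscle.

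Totals ran from 12159930 to 13488512 reads in DAPT libraries and from 10702548 to 14503665 in vehicle libraries. Mitochondrial genes took 2.29%, 2.48% and 2.79% of the reads in DAPT libraries and 1.89%, 2.11% and 2.16% in vehicle libraries, without overlap, and the part of this difference in the results was not tested. Levels are normalised read counts, and every log2 change is DAPT minus vehicle on the scale of log2(normalised count + 1). A gene counts as changed where limma's p, adjusted over all 14906 genes tested, is below 0.05. By that rule 18.1% of all tested genes changed, 9.22% higher and 8.91% lower under DAPT, and 33.3% of tested genes had no overlap between the groups' values. Over these genes the log2 change had a median of 0.00090. Of the defining smooth muscle markers, Smtn was clearly present at 1069 ± 33.9 under DAPT and 1078 ± 17 in vehicle (SD, n = 3 each). Myh11 averaged 47.1 ± 3.99 under DAPT and 49.2 ± 4.28 in vehicle, and Myocd had at most 1 read in any library, so these 2 markers of mature contractile cells were low or near 0 in both groups. Cnn1, Des and Lmod1 were also low, at 7.53, 31.1 and 36.5 under DAPT and 14.7, 24.7 and 44.7 in vehicle, and none of them passed. Acta2 and Tagln averaged 252 and 495 under DAPT and 520 and 925 in vehicle.

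Kinesins share a motor domain that splits ATP and turns its energy into movement or into the taking apart of microtubule ends. One set of them builds the spindle, moves chromosomes and completes the division of the cell. Another set carries vesicles, organelles and endosomes through the cytoplasm, and smaller sets work in cilia or set the growth of microtubules. Kif26a and Kif26b form the kinesin-11 family, whose motor domain binds microtubules without splitting ATP. Kif26b is known in mouse for kidney formation and as a protein that is degraded when Wnt5a acts through Ror receptors.

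Kif26b stood apart in the family. Of 42 members 38 passed the filter on low values, and 4 of these rose, 4 fell and 30 did not pass the test, so that 21.1% were called, close to the 18.1% of all tested genes. The median log2 change of the 38 was 0.05. Kif26b was the 1 member with a change of 2-fold or more, and the other 7 calls were all of 1.23-fold or less. On the reads of 5 libraries, without DAPT replicate 3, edgeR called only Kif26b and Kif23 among the kinesins, and DESeq2 only Kif26b. So 6 and 7 of the 8 calls were lost there. Limma on the same 5 libraries also called only Kif26b and Kif23, and so lost the same 6 calls as edgeR. The groups did not overlap in 18 of the 38, which is 47.4% against 33.3% of all tested genes. By the adjusted p of the authors' deposited table, Kif26b (1.31e-29) was the single member below 0.05, against 9.53% of the tested genes.

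**Figure D1:**
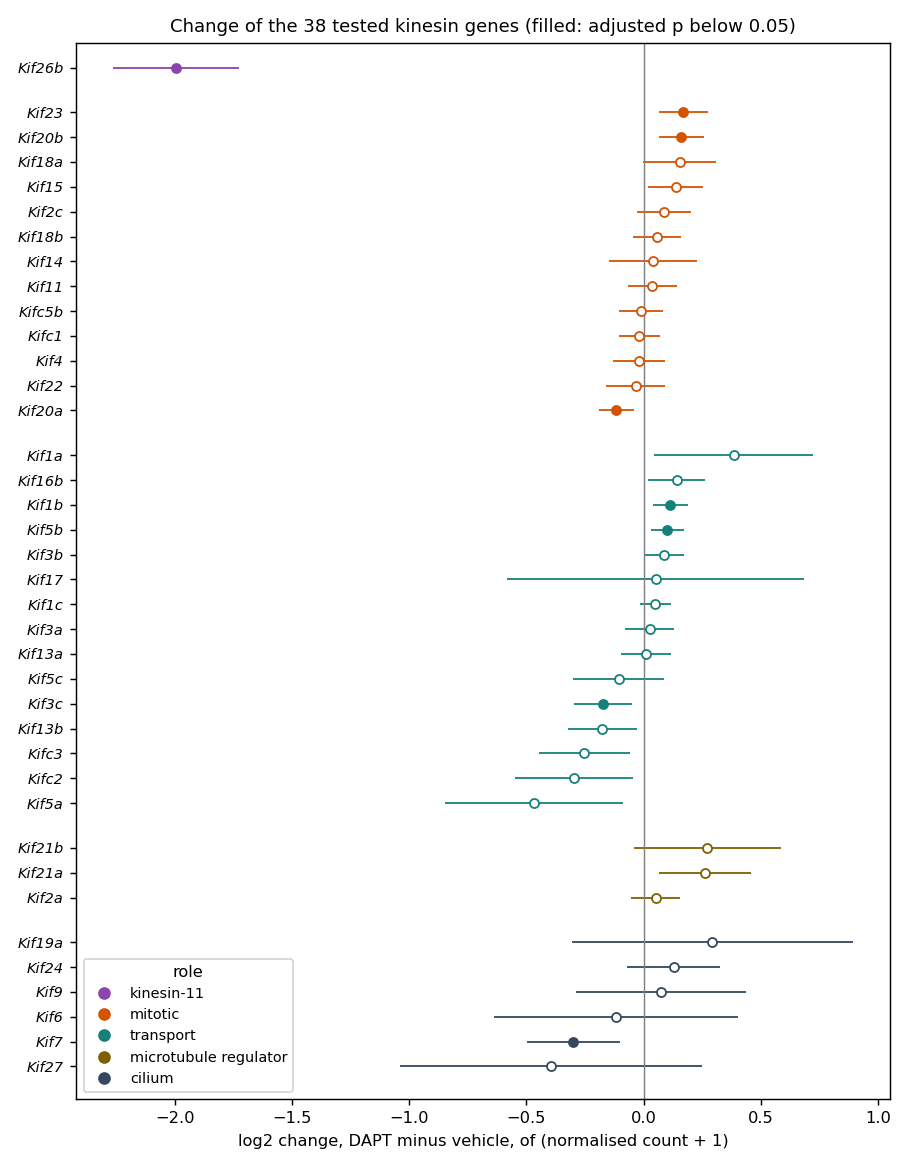
Log2 change of each tested kinesin gene, DAPT minus vehicle, on the scale of log2(normalised count + 1), with its 95% interval, grouped by role; filled points have a limma adjusted p below 0.05. Kif26b lies at -2.00, and the other 37 members lie between -0.47 and 0.38.

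Kif26b, on chromosome 1 (ENSMUSG00000026494), had normalised counts of 45.5, 41.0 and 36.6 in DAPT libraries 1 to 3, against 179.6, 169 and 151 in vehicle libraries 1 to 3. All DAPT values were far below all vehicle values. The gene averaged 41.1 ± 4.42 under DAPT and 167 ± 14.8 in vehicle (SD, n = 3 each), 3.99-fold lower under DAPT. The log2 change was -2.00 (SE 0.130, 95% interval -2.26 to -1.73, limma adjusted p = 3.42e-11). It had the second lowest log2 change of the 14906 tested genes. The call held in all 15 alternative analyses, with log2 changes from -2.07 to -1.92 when any 1 library was left out. RNA was taken from whole cultures, in which fewer cells of a type and less RNA per cell cannot be told apart.

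Kif26a, its closest relative, which is needed for the enteric nervous system in mouse, was almost unread. It had 1 read in the 3 DAPT libraries together and 3 reads in the 3 vehicle libraries together, all 3 of them in vehicle library 1. Both groups lie at or below a floor of 3 reads, so no fold is given, and Kif26a was not tested. Per kilobase of the deposited gene length, Kif26b stood at 4.85 under DAPT and 19.7 in vehicle, and Kif26a at 0.0479 under DAPT and 0.137 in vehicle. The log2 ratio of Kif26b to Kif26a was 5.54, 5.39 and 4.24 in DAPT libraries and 5.56, 7.41 and 7.24 in vehicle libraries. It differed by -1.68, for which an exact permutation test (two-sided) gave p = 0.1, the lowest value possible with 3 libraries a group. With Kif26a near 0 reads, this ratio follows Kif26b and the few Kif26a reads. These were 3 in vehicle library 1 and 1 in DAPT library 3, and they lower the ratio in those 2 libraries.

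The promoters of the 2 kinesin-11 genes are shown because Kif26b had the largest change of the 38 tested members and DAPT acts on Notch, whose nuclear partner RBPJ binds the letters GTGGGAA. Each window runs from 250 bases before the start site to 50 bases after it, 5′ to 3′ on the strand of the gene, from RefSeq on build GRCm38.p6. Capitals mark GTGGGAA or its reverse complement.
Kif26b, chr1:178528875-178529174, plus strand: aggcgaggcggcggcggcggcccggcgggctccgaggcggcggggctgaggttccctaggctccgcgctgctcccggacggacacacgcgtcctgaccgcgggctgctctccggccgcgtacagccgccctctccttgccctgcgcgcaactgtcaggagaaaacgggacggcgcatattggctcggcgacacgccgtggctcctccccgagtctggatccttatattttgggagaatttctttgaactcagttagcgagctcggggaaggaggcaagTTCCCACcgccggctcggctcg
Kif26a, chr12:112145958-112146257, plus strand: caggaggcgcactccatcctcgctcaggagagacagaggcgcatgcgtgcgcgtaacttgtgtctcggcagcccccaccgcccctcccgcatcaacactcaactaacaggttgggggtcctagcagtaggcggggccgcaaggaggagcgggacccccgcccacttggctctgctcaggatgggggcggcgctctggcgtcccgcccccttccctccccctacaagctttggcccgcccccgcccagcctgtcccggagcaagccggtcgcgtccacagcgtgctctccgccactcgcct
The Kif26b window holds 1 such match, on the reverse strand, 28 bases after the start site, and the Kif26a window holds 0. Of all 32851 promoter windows of this length 6.38% hold the letters on either strand. Of the 37 windows found for 33 kinesin members, those of Kif14, Kif18a, Kif12, Kif1c and Kif6 hold it too. None of these 5 genes was called changed, and Kif12 had 0 reads. The Kif26b window also holds CTTTGA, the TCF/LEF letters, overlapping TTTGAA near the start site, and 16.0% of all windows hold CTTTGA on either strand. These are letter matches only, and binding was not measured.

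The annotation places 909 exonic bases of another gene, Gm16564, on the strand opposite Kif26b (GENCODE M21). Gm16564 had normalised counts of 8.53, 9.47 and 3.96 in DAPT libraries, against 20.7, 13.2 and 13.3 in vehicle libraries. Its log2 change was -1.05 (SE 0.353, limma adjusted p = 0.0396), in the same direction as Kif26b. Whether reads were counted by strand is not given in the sources used here, so reads from the pair cannot be told apart. Gm16564 was named after its value was seen.

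**Figure D2:**
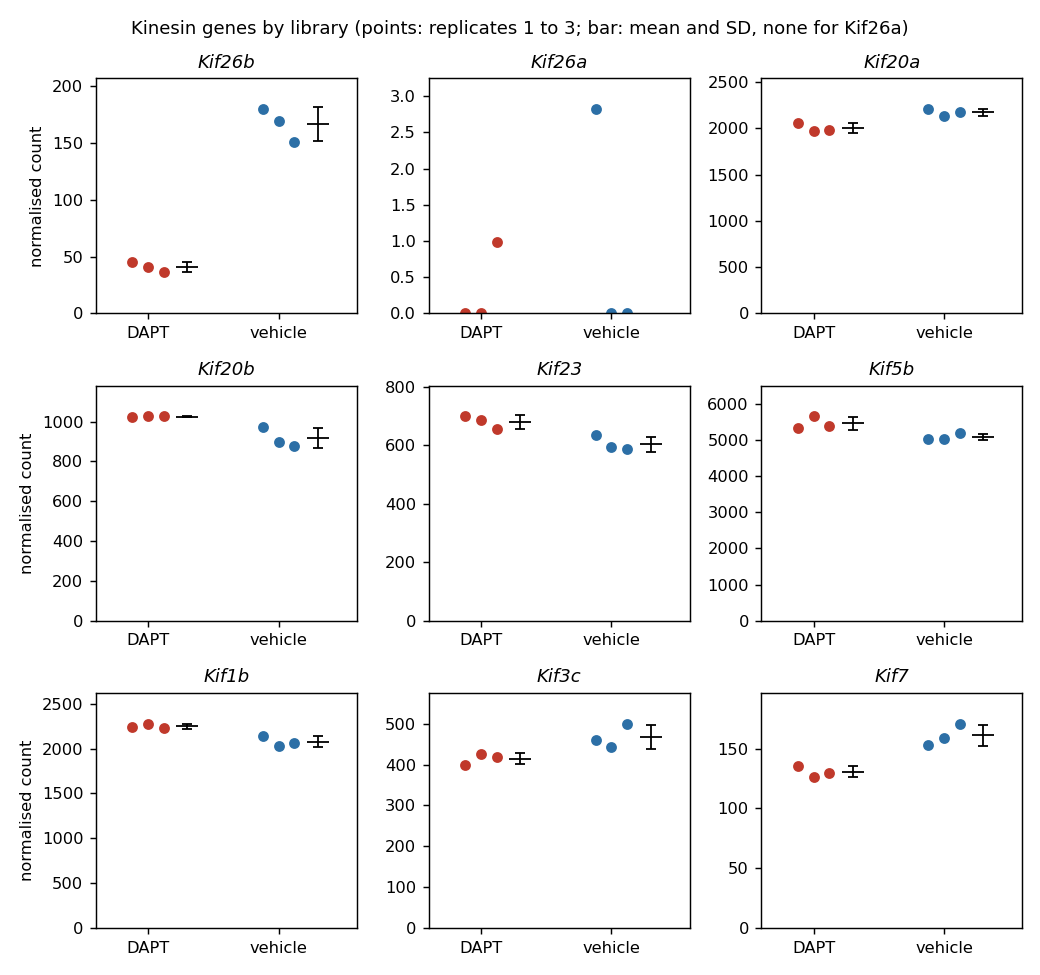
Normalised count of Kif26b, Kif26a and the 7 other kinesin genes called changed, by library, with DAPT left of vehicle; points are replicates 1 to 3 and bars show mean and SD, left out for Kif26a. The 3 Kif26b values under DAPT lie between 36.6 and 45.5 and those in vehicle between 151 and 179.6, while the groups of the 7 other called genes lie close together.

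Genes that partner Kif26b in other settings were measured beside it. In the Wnt5a-Ror and planar polarity list, 9 of 21 tested genes fell and 0 rose, where 8.91% of all tested genes fell and 9.22% rose. The other 12 did not pass, and the median log2 change was -0.08. Wnt5a itself, the secreted ligand, averaged 801 ± 18.1 under DAPT and 1166 ± 59.2 in vehicle (SD, n = 3 each), a log2 change of -0.54 (limma adjusted p = 4.06e-09). Its DAPT values of 803, 818 and 782 all lay below its vehicle values of 1183, 1215 and 1101. The receptor Ror1 fell by 0.45 on the log2 scale (limma adjusted p = 4.65e-05), while Ror2 was at 176 ± 17.2 under DAPT and 161 ± 19.1 in vehicle and did not pass (adjusted p = 0.425). The co-receptor Ptk7 and the Frizzled receptor Fzd4 fell by 0.18 and 0.27 on the log2 scale. The polarity cadherin Celsr1, low in both groups, averaged 12.8 ± 4.50 under DAPT and 24.98 ± 5.16 in vehicle (limma adjusted p = 0.0195). Its call was lost in 4 of the 6 analyses that left out 1 library (DAPT 1, DAPT 3, vehicle 1 or vehicle 3), with adjusted p up to 0.0917. Others of the list that fell were Fzd2, Fzd8, Prickle1 and Daam2, and Ror1 and these 4 were named after their values were seen.

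Nonmuscle myosin II, the contractile motor with which Kif26b works in the developing mouse kidney, was lower in part. Of 9 tested genes 5 fell, 0 rose and 4 did not pass, and 1 rose without DAPT replicate 1. The share that fell over all tested genes was 8.91%. Myl9, a regulatory light chain also abundant in smooth muscle, averaged 292 ± 17.7 under DAPT and 496 ± 39.6 in vehicle (log2 change -0.76, limma adjusted p = 9.21e-09). Myh14, a heavy chain, averaged 25.7 ± 3.64 under DAPT and 41.9 ± 1.98 in vehicle. Myl6 fell by 0.37 and Myl12b by 0.12 on the log2 scale, and the myosin kinase gene Mylk was the fifth that fell. Myh10, the heavy chain studied with Kif26b, was at 3285 ± 91.3 under DAPT and 3468 ± 149 in vehicle, with an adjusted p of 0.158. Without DAPT replicate 2, DAPT replicate 3 or vehicle replicate 3 the count of those that fell was 3, and with DESeq2 on 5 libraries it was 2.

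Some markers of smooth muscle and of other cell types moved in these cultures. Of 6 mesothelial markers 5 fell, where 8.91% of all tested genes fell and 9.22% rose. The summed normalised count of the 6 ran from 1916 to 2061 in DAPT libraries and from 3472 to 3552 in vehicle libraries. None of the 6 markers was at 0. Among them Lrrn4 averaged 239.5 ± 4.02 under DAPT and 675 ± 88.4 in vehicle, and Upk3b 671 ± 40.5 under DAPT and 1349.8 ± 51.4 in vehicle. Wt1 and Upk1b fell by 0.43 and 0.52 on the log2 scale. Of 6 adventitial fibroblast markers 4 fell and 1 rose, and their sum ran from 21882 to 23125 under DAPT and from 21386 to 23253 in vehicle. Lum fell by 0.87, Dpt by 0.33 and Dcn by 0.14 on the log2 scale, and Ly6a was 0.20 higher (Dcn lost its call without DAPT replicate 1, adjusted p = 0.124). The number of adventitial markers that fell was 2 without DAPT replicate 1 and 2 with DESeq2 on 5 libraries. Of 8 smooth muscle markers 7 were tested, and Acta2 and Tagln fell by 1.05 and 0.90 on the log2 scale. The sum of the 8 ran from 1826 to 2021 under DAPT and from 2538 to 2733 in vehicle. The part of these shifts in the Kif26b result was not tested. Endothelial markers summed to 596 to 617 under DAPT and 583 to 640.2 in vehicle, with 0 of 3 tested past the threshold. Kdr, at 529 ± 14.2 under DAPT and 541 ± 18.1 in vehicle, made up most of that sum. Macrophage and leukocyte markers summed to 419.8 to 435 under DAPT and 347 to 399.95 in vehicle, with Emr1 at 0 and 1 of 3 tested, Cd68, higher. The Cd68 call was lost without DAPT replicate 2 or vehicle replicate 1 (adjusted p up to 0.0678), which left 0 higher. Some defining markers of both were near 0: Pecam1, Cdh5 and Ptprc had 2.66, 1.69 and 0 normalised counts on average under DAPT, and 2.52, 1.72 and 0.314 in vehicle. Emcn, Emr1 and Itgam were also below the filter on low values. Csf1r, Tek, Vwf and Lyz2 passed it, averaging 190, 48.1, 25.8 and 16.9 under DAPT and 175, 41.4, 19.9 and 22.1 in vehicle.

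The mitotic kinesins changed little. Of 15 members 13 were tested, 2 rose and 1 fell, while 10 did not pass, with a median log2 change of 0.04. The called share was 23.1%, against 18.1% of all tested genes. For all 13 the 95% interval of the change lay within 1.25-fold in either direction. Their summed normalised count was 10516, 10337 and 10075 in DAPT libraries and 10376, 10211 and 9919 in vehicle libraries, so the groups overlapped. Kif2b, a depolymerase of the spindle, had 0 reads in all 6 libraries, which allows up to 3 reads each. Kif4b had 4 reads under DAPT and 3 in vehicle and was not tested.

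Kif20b and Kif23 rose and Kif20a fell, and all 3 belong to the kinesin-6 family, which acts in the midzone as the cell divides. Kif20b had 1021, 1026 and 1026 normalised counts in DAPT libraries, against 974, 896 and 879 in vehicle libraries (log2 change 0.16, SE 0.0458, limma adjusted p = 0.0145). Kif23, the motor of the centralspindlin complex, had 699, 686 and 655 in DAPT libraries, against 634, 593 and 586 in vehicle libraries (log2 change 0.17, SE 0.0513, limma adjusted p = 0.0218). Kif20a had 2062, 1967 and 1982 in DAPT libraries, against 2208, 2129 and 2178 in vehicle libraries (log2 change -0.12, SE 0.0364, limma adjusted p = 0.0271). The 3 genes showed no overlap between groups, but each difference was of 1.13-fold or less. Kif20b lost its call without DAPT replicate 2 or 3 or vehicle replicate 2 or 3 (adjusted p up to 0.0664). Kif23 lost it without DAPT replicate 1 or 2 or vehicle replicate 2 or 3 (up to 0.0965), and Kif20a without DAPT replicate 2 or 3 or vehicle replicate 1 (up to 0.124). On the strand opposite Kif20a lies Cdc23, with 1271 shared exonic bases, at 2035 ± 20.5 under DAPT and 2019 ± 40.3 in vehicle.

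Per kilobase the highest mitotic members were Kif20a, Kif18b and Kif22. Kif20a stood at 511 normalised counts per kilobase under DAPT and 554 in vehicle. Kif18b, which sets the length of astral microtubules, stood at 241 under DAPT and 231 in vehicle, with library counts of 911, 819 and 851 under DAPT against 826, 861 and 789 in vehicle (limma adjusted p = 0.471). Kif22, a chromokinesin, stood at 229 under DAPT and 235 in vehicle, with counts of 477, 486 and 455 under DAPT against 507, 504 and 442 in vehicle (limma adjusted p = 0.771). In both genes the groups overlapped. Kif11, which slides spindle microtubules apart, had a log2 change of 0.04 with an interval of -0.07 to 0.14. Kif15, a second motor that keeps the spindle bipolar, had no overlap between groups, at 445, 470.3 and 451 under DAPT against 412, 412 and 417 in vehicle, without passing the test (limma adjusted p = 0.0971).

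The promoters of the mitotic members are shown for a letter pattern that most of them hold and few transport members do. The cell cycle genes homology region, or CHR, is an element of genes switched on before cell division, read here as TTTGAA or TTCGAA on either strand. It was found in 11 of 13 mitotic windows, 1 of 12 transport windows and 19.2% of all 32851 windows. CCAAT boxes were in 9 of 13 mitotic windows, 4 of 12 transport windows and 37.4% of all windows. Below are 30 bases around the CHR letters nearest the start site of 6 mitotic members, with every match in the stretch in capitals (in Kif20b a pair of matches side by side), 5′ to 3′ on the strand of the gene (RefSeq, GRCm38.p6).
Kif11, chr19:37376351-37376380, plus strand: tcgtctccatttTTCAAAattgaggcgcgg
Kif18b, chr11:102925104-102925133, minus strand: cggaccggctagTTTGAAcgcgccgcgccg
Kif20b, chr19:34922353-34922382, plus strand: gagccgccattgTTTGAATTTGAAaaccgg
Kif23, chr9:61946780-61946809, minus strand: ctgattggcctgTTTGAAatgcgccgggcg
Kifc1, chr17:33890615-33890644, minus strand: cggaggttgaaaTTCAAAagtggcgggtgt
Kifc5b, chr17:26917108-26917137, plus strand: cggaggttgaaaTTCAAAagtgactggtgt
The first capital lies 19 bases before the start site in Kif11 and 3, 7, 2, 1 and 29 bases after it in Kif18b, Kif20b, Kif23, Kifc1 and Kifc5b. In the mitotic members not shown, the nearest letters lay at -228 in Kif14, -103 in Kif2c, -19 in Kif15, -17 in Kif22 and 19 in Kif4. For Kif11, Kif20b, Kif23 and Kif2c, the bases just after the start site were not found in an annotated transcript of the gene. Among the windows searched, those of Kif18a and Kif2b lacked the letters. Kif20a, the mitotic member that fell, and Kif4b were not searched. Kif26b carries TTTGAA too, 9 bases before its start site. Kif20b and Kif23, which rose, and Kif11 and Kif18b, which did not pass, all carry the letters.

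Kifc1, a minus-end motor that clusters spindle poles, and Kifc5b, a gene much like it on the same chromosome 17, have sequence in common, so reads could be split between them and both values are uncertain. Of all 50-base words in the transcripts of Kifc1, 38.6% are also found in those of Kifc5b. Kifc1 had 1355 ± 21.6 normalised counts under DAPT and 1373 ± 67.5 in vehicle, and Kifc5b 768 ± 10.3 under DAPT and 774 ± 12.3 in vehicle (SD, n = 3 each). Neither passed (limma adjusted p = 0.827 and 0.917), and their intervals lay between -0.10 and 0.08.

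Genes that work with mitotic kinesins, and markers of dividing cells, also differed little. Of 17 mitotic partners 1 rose and 2 fell, while 14 did not pass (median log2 change 0.01). Over all tested genes 9.22% rose and 8.91% fell. Of 13 proliferation markers 1 rose and 0 fell, while 12 did not pass (median 0.02), and their sum ran from 30290 to 30704 under DAPT and from 28890 to 30504 in vehicle. Nusap1, a spindle microtubule protein, was 0.16 higher on the log2 scale. Ect2, the exchange factor recruited by centralspindlin, fell by 0.17 and Anln, the cytokinetic ring protein anillin, by 0.12. Pcna, the sliding clamp of DNA replication, was 0.13 higher. All 4 calls were lost in some analyses that left out 1 library: Nusap1 without DAPT replicate 1 or 2, Ect2 and Anln without DAPT replicate 1 or 3 or vehicle replicate 1, and Pcna without DAPT replicate 2 or vehicle replicate 2. Without vehicle replicate 1, 2 partners and 2 proliferation markers rose, and 2 proliferation markers rose without vehicle replicate 3. The adjusted p of Nusap1, Ect2, Anln and Pcna reached 0.0733, 0.0949, 0.134 and 0.0535, in that order. Racgap1, the partner of Kif23 in centralspindlin, was at 1686 ± 63.3 under DAPT and 1586 ± 43.4 in vehicle (limma adjusted p = 0.142), and Mki67 at 4385 ± 181 under DAPT and 4351 ± 487 in vehicle (adjusted p = 0.876). These last 2 were named after their values were seen.

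**Figure D3:**
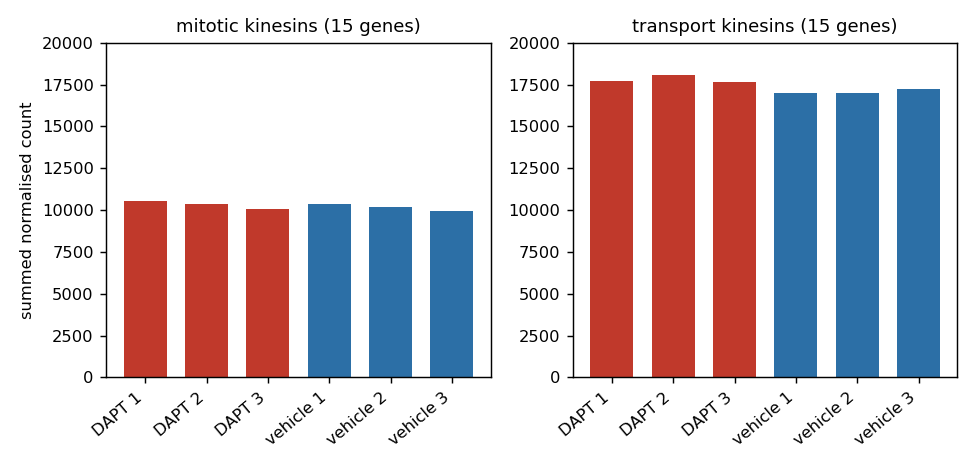
Summed normalised count of the 15 mitotic and the 15 transport kinesin genes in each library, DAPT libraries left of vehicle libraries. The mitotic sums lie between 9919 and 10516 with overlap between groups, and the transport sums between 17635 and 18065 under DAPT and between 16999 and 17249 in vehicle.

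The transport kinesins held most of the reads of the family, and 0 of them changed by 2-fold or more. All 15 were tested, 2 rose and 1 fell, while 12 did not pass, with a median log2 change of 0.03. The called share was 20%, against 18.1% of all tested genes. In 9 of 15 (60%) the groups did not overlap, against 33.3% of all tested genes. The 95% interval lay within 1.25-fold in 9 of the 15. An unadjusted limma p below 0.05 was found in 10 of the 15, against 30% of all tested genes. Their summed normalised count was 17717, 18065 and 17635 in DAPT libraries and 17019, 16999 and 17249 in vehicle libraries, with no overlap between groups and a ratio of 1.04. This sum rests on the most abundant members. The mean of log2(normalised count + 1) over the 15 genes went the other way, at 8.52 under DAPT and 8.56 in vehicle. In that mean the groups overlapped. The mitotic sum divided by the transport sum was 0.594, 0.572 and 0.571 in DAPT libraries and 0.610, 0.601 and 0.575 in vehicle libraries, with overlap.

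Kif5b and Kif1b were the transport members that rose. Kif5b, the heavy chain of conventional kinesin found in all tissues, had 5333, 5651 and 5379 normalised counts in DAPT libraries, against 5030.1, 5028 and 5184 in vehicle libraries (log2 change 0.10, SE 0.0334, limma adjusted p = 0.0347). Kif1b, which carries mitochondria and synaptic vesicle precursors, had 2241, 2280.1 and 2229.6 in DAPT libraries, against 2143, 2029 and 2065 in vehicle libraries (log2 change 0.11, SE 0.0361, limma adjusted p = 0.0282). Kif3c, a motor subunit that can pair with Kif3a, fell, with 399.9, 425 and 419 in DAPT libraries, against 461, 443 and 500.3 in vehicle libraries (log2 change -0.17, SE 0.0604, limma adjusted p = 0.0478). No group overlapped in these 3 genes. Kif5b lost its call without DAPT replicate 2 or 3 or vehicle replicate 1 or 2 (adjusted p up to 0.217), and Kif1b without any 1 of the DAPT replicates or without vehicle replicate 2 (up to 0.128). Kif3c kept its call only without vehicle replicate 2 among the 6 analyses that left out 1 library, with adjusted p up to 0.199. Kif3c and Kif5b also lost their calls with no filter on low values, and Kif3c with quantile normalisation. Kif3c also shares 2617 exonic bases with 1110002L01Rik on the opposite strand, which was at 122 ± 9.68 under DAPT and 133 ± 20.8 in vehicle.

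Kif1c, which carries integrin-bearing vesicles, was the most counted kinesin, at 5768, 5662 and 5603 in DAPT libraries against 5372, 5492 and 5590.1 in vehicle libraries. The groups did not overlap, by a narrow margin, and the change of 0.05 did not pass (limma adjusted p = 0.320, interval -0.02 to 0.12). Kif5b and Kif1c together held 35.9% to 37.8% of all kinesin counts in each library. Per kilobase Kif5b stood at 592 under DAPT and 552 in vehicle, Kif1c at 473 under DAPT and 457 in vehicle, and Kif3b at 110.3 under DAPT and 104 in vehicle. Kif3b, the partner of Kif3a in kinesin-2, had 1326, 1360.5 and 1306 under DAPT against 1301, 1220.3 and 1237 in vehicle, without passing (limma adjusted p = 0.150). Kif3a was at 598 ± 8.49 under DAPT and 587 ± 6.99 in vehicle, with an interval of -0.08 to 0.13.

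Other transport members did not pass, and several had wide intervals. Kif5a, the neuronal heavy chain, had 34.1, 26.3 and 36.6 under DAPT against 46.1, 45.6 and 42.5 in vehicle (log2 change -0.47, interval -0.85 to -0.09, limma adjusted p = 0.0827). Kif1a, the axonal carrier of synaptic vesicle precursors, had 80.5, 93.6 and 115 under DAPT against 52.7, 85.3 and 85.9 in vehicle (log2 change 0.38, interval 0.04 to 0.73, limma adjusted p = 0.114), and it passed without vehicle replicate 3 (0.0477). Of 5 neuron markers only Tubb3 passed the filter, and their sum ran from 415 to 439 under DAPT and from 421 to 461 in vehicle. The C-terminal motors Kifc2 and Kifc3 had log2 changes of -0.30 and -0.25 (adjusted p = 0.0983 and 0.0630), and Kifc3 passed without DAPT replicate 1 (0.0296). Kif13b, a carrier to the plasma membrane, was at 377 ± 22.3 under DAPT and 427 ± 43.8 in vehicle (adjusted p = 0.0895), and passed without vehicle replicate 3 (0.00671). Kif13a, Kif16b, Kif5c and Kif17 had log2 changes of 0.01, 0.14, -0.11 and 0.05, and none of them passed.

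Of 13 light chains and adaptors that link kinesins to cargo, 0 rose, 2 fell and 11 did not pass. For this and the next 2 lists, the shares over all tested genes were 9.22% higher and 8.91% lower. Klc3, a light chain best known from the testis, averaged 158 ± 12.1 under DAPT and 192 ± 7.59 in vehicle (limma adjusted p = 0.0312). Mapk8ip3, a scaffold that joins kinesin-1 to JNK kinases, averaged 1384 ± 21.8 under DAPT and 1522 ± 35.3 in vehicle (limma adjusted p = 0.0142). Klc3 lost its call without DAPT replicate 1 or 3 or vehicle replicate 1 or 3 (adjusted p up to 0.140), and Mapk8ip3 without DAPT replicate 2 or vehicle replicate 2 (up to 0.0756). In this list 1 gene rose without DAPT replicate 1 or without vehicle replicate 3. Of 20 genes of dynein and dynactin, the motor that runs the other way along microtubules, 2 rose and 1 fell, while 17 did not pass. Dync1li1 and Dync1li2 were 0.17 and 0.14 higher on the log2 scale, and Dynll1 fell by 0.18. The Dync1li1 call was lost without DAPT replicate 2 or 3 or vehicle replicate 2 (adjusted p up to 0.128). Of 14 tubulins 2 rose and 12 did not pass. Tuba1c averaged 984 ± 150.1 under DAPT and 787 ± 30.8 in vehicle (limma adjusted p = 0.00244, but 0.126 with robust empirical Bayes), and Tuba8, low in both groups, 37.1 ± 9.81 under DAPT and 22.2 ± 6.37 in vehicle (adjusted p = 0.0355, up to 0.226 without DAPT replicate 1, DAPT replicate 2 or vehicle replicate 2).

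**Figure D4:**
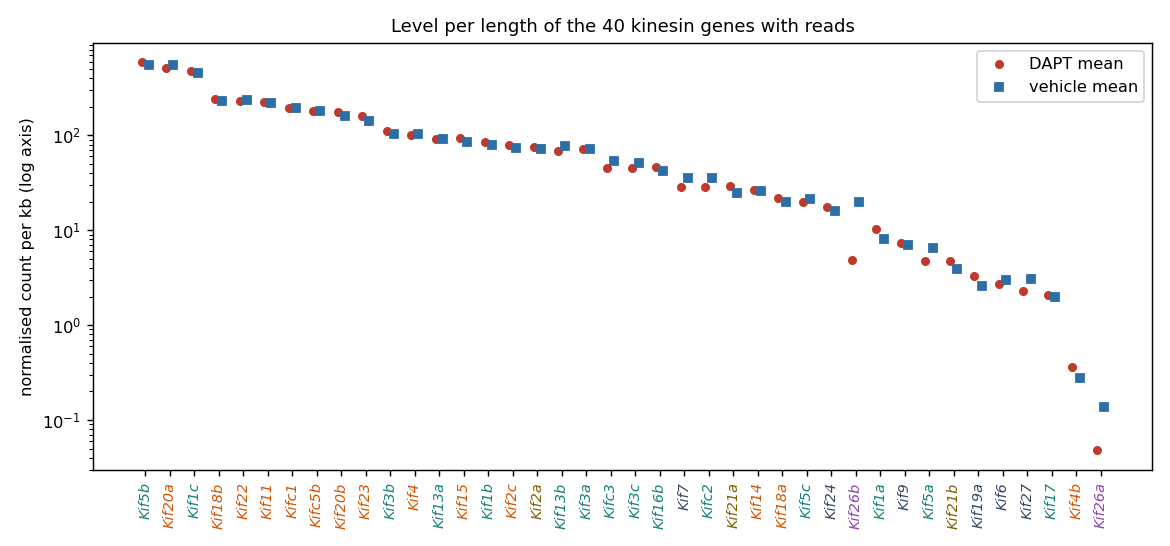
Mean normalised count per kilobase of deposited gene length, on a log axis, of the 40 kinesin genes with at least 1 read, DAPT left of vehicle for each gene; gene names are coloured by role as in the plot of log2 changes. Kif26b is at 4.85 under DAPT and 19.7 in vehicle, while the paired points of most other genes lie together.

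Among the 6 kinesins of cilia 1 fell, Kif7, a called share of 16.7% against 18.1% of all tested genes. The groups did not overlap in 16.7% of the 6, against 33.3% of all tested genes. Kif7 organises the tip of the primary cilium in Hedgehog signalling and had 136, 126 and 129.8 normalised counts in DAPT libraries, against 153, 159 and 171 in vehicle libraries, with no overlap (log2 change -0.30, SE 0.0954, limma adjusted p = 0.0302). The call was lost without DAPT replicate 2 or 3 or vehicle replicate 2 or 3 (adjusted p up to 0.109). On the opposite strand, 9330171B17Rik shares 877 exonic bases with Kif7 and was at 24.0 ± 5.79 under DAPT and 29.3 ± 8.65 in vehicle. The other 5 ciliary members, Kif24, Kif9, Kif19a, Kif6 and Kif27, did not pass, with overlap between groups in each. Kif24, which restrains cilium formation, had 208, 217 and 168 under DAPT against 187, 185 and 168 in vehicle, and Kif9, of motile cilia, 43.6, 37.9 and 41.6 under DAPT against 43.3, 34.8 and 39.0 in vehicle. Foxj1, the master factor of motile ciliated cells, averaged 9.91 ± 2.78 under DAPT and 8.39 ± 4.46 in vehicle. Ccdc39, the 1 tested of 4 markers of ciliated cells, was at 65.7 ± 11.5 under DAPT and 67.3 ± 12.4 in vehicle, and the sum of the 4 ran from 64.2 to 89.1 under DAPT and from 69.1 to 101 in vehicle.

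In the Hedgehog list, 2 of 10 tested genes rose and 3 fell, where 9.22% of all tested genes rose and 8.91% fell. The other 5 did not pass, and the median log2 change was -0.18. Boc, a co-receptor, averaged 678 ± 10.3 under DAPT and 1166 ± 95.7 in vehicle (log2 change -0.78, limma adjusted p = 4.34e-11), and its relative Cdon fell by 0.30 on the log2 scale, as did Gas1, a further co-receptor. Gli3, the main repressor of the pathway, was 0.17 higher and Gpr161, a negative regulator in the cilium, 0.26 higher. The Gli3 call was lost without DAPT replicate 1 or 2 or vehicle replicate 3 (adjusted p up to 0.113), and that of Gpr161 without DAPT replicate 2 or 3 or vehicle replicate 3 (up to 0.187). Gli1, the usual readout of an active pathway, was below the filter, at 0, 2.10 and 2.97 under DAPT against 1.88, 1.20 and 1.77 in vehicle, and was named after its values were seen. Of 17 genes of intraflagellar transport, which kinesin-2 drives, 1 rose and 0 fell, while 16 did not pass. That gene was Wdr35, 0.12 higher on the log2 scale, and its call was lost without DAPT replicate 1 or 2 or vehicle replicate 1 or 2 (adjusted p up to 0.234).

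**Figure D5:**
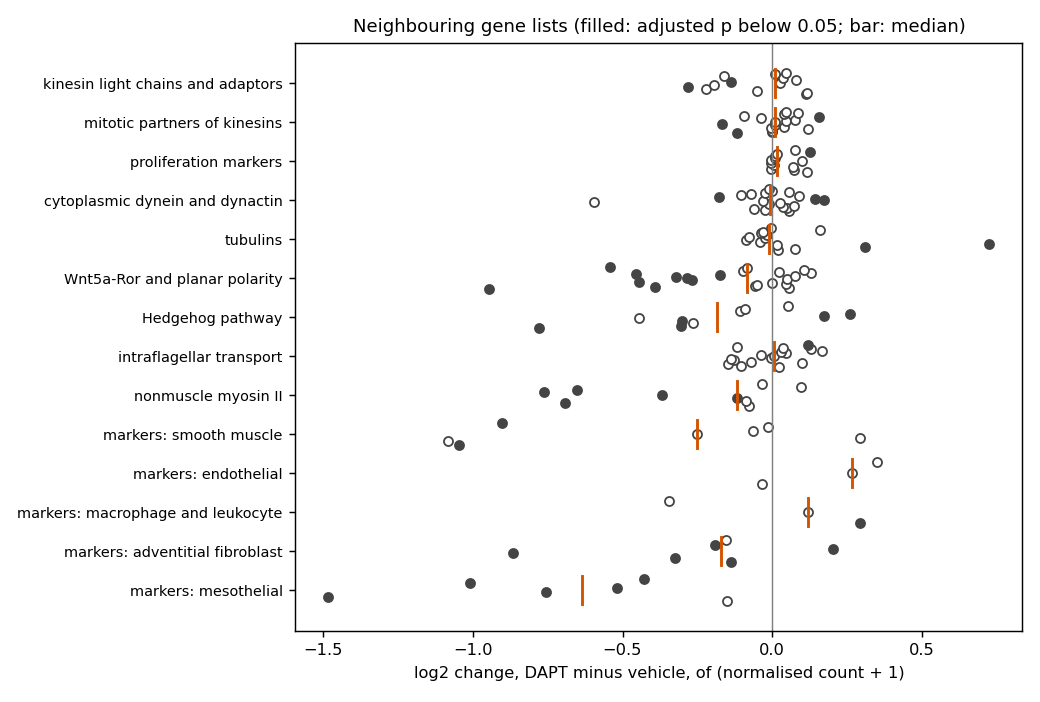
Log2 change of each tested gene in the lists of partners, neighbouring pathways and cell type markers with at least 3 tested genes, DAPT minus vehicle, with filled points for a limma adjusted p below 0.05 and a bar at the median of each list. In the Wnt5a-Ror list the 9 filled points all lie below 0, and in the mesothelial list 5 of the 6 points are filled, all 5 of them below 0.

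The 3 kinesins that regulate microtubule growth were all measured and none passed, where 18.1% of all tested genes did. Kif21a, which slows growth at the cell cortex, had 181, 217 and 202 normalised counts under DAPT against 149, 179 and 172 in vehicle, without overlap and close to the threshold (log2 change 0.26, SE 0.0948, limma adjusted p = 0.0555). It passed without DAPT replicate 1 or without vehicle replicate 2 (down to 0.0385). Kif21b, known from neurons and lymphocytes, had 64.4, 56.8 and 62.4 under DAPT against 53.6, 54.1 and 44.3 in vehicle, again without overlap (log2 change 0.27, interval -0.04 to 0.59, limma adjusted p = 0.241). Kif2a, a depolymerase of spindle poles and neurites, had 855, 766 and 806 under DAPT against 746, 818 and 777 in vehicle, with overlap (limma adjusted p = 0.550). Kif12, a kinesin of kidney and liver epithelia, had 0 reads in all 6 libraries.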

How the data were processed

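Messenger RNA of 6 libraries was analysed, 3 with DAPT and 3 with vehicle, grouped and numbered by the sample titles. Column letters C and I were read as control and inhibitor. The labels' protocols name an Illumina TruSeq kit for library construction. In the submitters' processing notes stand mm9, DESeq 1.16.0, HTSeq 0.5.4p3 and TopHat2 2.0.4, with no role given. The annotation and strand setting are not given in the sources used here. For each gene the authors deposited a normalised signal, which the file headers and the values show to be the read count divided by 1 size factor per library. Of these values 100% were whole multiples of 1 read within 0.01 reads. The factor of DAPT replicate 3 lies near 1 (1.01), and its reads were left out of count tests. Its values were whole multiples too, and the read totals and read counts given here include that library. Of the log2 ratio, p-value and adjusted p-value that the authors deposited per gene, only the last is quoted.

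Genes with a value of at least 10 in at least 3 libraries were tested with limma 3.58.1 (R 4.3.3, intensity trend) on log2(value + 1), two-sided, with Benjamini-Hochberg adjustment over 14906 genes, no covariate and a threshold of 0.05. The pseudocount makes changes of low genes smaller. Alternatives included other pseudocounts, filters and normalisation, edgeR 4.0.16 and DESeq2 1.42.0 on 5 libraries, and leaving out each library. The limma step was tested on simulated data. Promoter windows came from RefSeq (GRCm38.p6) and matched 33 of 42 members by symbol. Besides the motifs named, the letters TGGGAA, which lie within GTGGGAA, the TEAD letters GGAATG, the SMAD letters GTCTAGAC and the E-box letters CACGTG were searched on both strands. Values in each library are described for Kif26a, Kif26b, members called changed and the 3 highest per kilobase in each role, and up to 4 called genes are named per list, taken from both ends. Other genes described were chosen after their values were seen. Members, roles and lists were chosen with earlier results of these data known, so none of the patterns is independent support. Intervals are unadjusted, and intervals and floors do not cover errors beyond counting and replicate spread.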

Additional observations from a re-analysis of the deposited data

How the results depend on the processing

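Kif26b was called lower in all 15 alternatives, with log2 changes from -2.07 to -1.90. The 7 other kinesin calls were less stable. With edgeR on 5 libraries 1 kinesin gene was higher and 1 lower, and with DESeq2 on 5 libraries 0 were higher and 1 lower. By limma 4 were higher and 4 lower on all 6 libraries, and 1 and 1 on the same 5. On all 6 libraries 17 of the 38 tested members had an unadjusted limma p below 0.05, as did 4471 of all 14906 tested genes (30%). Leaving out 1 library gave 0 to 3 kinesin genes higher and 1 to 4 lower. The number of all genes past the threshold was 1938 with edgeR and 984 with DESeq2 on 5 libraries (446 higher and 538 lower). In limma it was 2703 on all 6 libraries and 1956 on the same 5. Over the 9 lists of partners and pathways DESeq2 called 1 higher and 11 lower. Limma called 9 and 22 on all 6 libraries, and 7 and 16 on the same 5. Leaving out 1 library gave 2 to 11 of those list genes higher and 16 to 22 lower. The edgeR and DESeq2 tests and the analyses that left out 1 library used fewer samples, and the other alternatives used all 6 libraries. On all 6, Kif5b and Kif3c lost their calls with no filter on low values, and Kif3c with quantile normalisation.

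The summed transport kinesins had a log2 ratio of DAPT over vehicle of 0.0593, which was 0.0385 per kilobase and -0.0337 as a mean of log2 values. The log2 ratio of Kif26b to Kif26a differed by -2.27 to -1.27 when 1 library was left out.

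Among the genes followed through the alternatives, signs turned for some whose changes did not pass in limma. When 1 library was left out, the log2 change ran from -0.0035 to 0.149 for Kif9, from -0.302 to 0.0433 for Kif6, from -0.0984 to 0.00052 for Kif22, from -0.0102 to 0.0892 for Kif11, from -0.0515 to 0.0189 for Kifc1, from -0.0181 to 0.0031 for Kifc5b, from -0.0545 to 0.0155 for Kif4, from -0.0546 to 0.124 for Kif14, from -0.0138 to 0.0507 for Kif13a, from -0.0832 to 0.250 for Kif17 and from -0.131 to 0.114 for Ccdc39. The Kif4 log2 change was 0.0118 with edgeR and 0.0141 with DESeq2. The cause was not tested.

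The replicate numbers were not treated as pairs. For this choice each library's log2 values were taken as deviations from their own group mean, over well-counted genes. Between same-numbered DAPT and vehicle libraries these deviations correlated at 0.0440, -0.0267 and 0.0353. Between differently numbered ones the correlations ran from -0.0641 to 0.0275. With the replicate block 10 kinesin genes were called, against 8, Kif1a and Kif21a being added, and the log2 ratio of Kif26b to Kif26a still differed by -1.68. Depth limited low members such as Kif17, Kif19a and Kif27, whose intervals span more than a 2-fold range.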
